A study of Caenorhabditis elegans with 4 samples.

Results

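The centre of chromosome III held 495 of the 9630 SWD-3 peaks in the list deposited for the whole series. A peak was counted in the centre when its midpoint lay above position 3446000 and at or below position 10337000 of chromosome III in the WormBase WS220 build, a span of 6.891 Mb that makes up the middle 50% of the chromosome. The rule used position alone. No peak was dropped for a low score, so all 495 are described. Chromosome III had 1407 series peaks in all, with 657 in its left arm and 255 in its right arm. In the same span, ChIP replicate 1 had 244 of its 2698 peaks and ChIP replicate 2 had 492 of its 4580 peaks.

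SWD-3 carries WD40 repeats, a fold that serves as a platform for protein contacts, and belongs to the family of WDR5. In animals from worms to mammals, WDR5 proteins are core subunits of the MLL/SET1 enzymes, which place methyl groups on lysine 4 of histone H3, a mark found at the start of active genes. Autosome centres in C. elegans are known to be rich in genes and to recombine rarely, whereas the arms hold more repeats and more of the marks of silent chromatin. No gene annotation in WS220 coordinates was used here, so gene content was not measured and sites are given by position.

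The chromatin came from mixed-stage embryos of the wild-type strain N2, a population of both males and hermaphrodites, for which the labels give a temperature of 20 °C. Chromatin immunoprecipitation with sequencing (ChIP-seq) used the antibody SDQ4640, raised against SWD-3 in rabbits, polyclonal and purified by affinity. The labels name 2 ChIP libraries and 2 libraries of input DNA, and do not say whether the replicates are separate embryo preparations. Embryos of all stages were mixed, so a site bound in few cells and a site bound weakly in many cannot be told apart. Input values were not analysed here, and the part that places giving peaks with any antibody play in the results was not tested. The files hold no read counts, so depth is unknown and an absent peak means only that none was called. A peak list has no spread over samples: the comparisons below are descriptions without p-values, and the 95% Wilson intervals cover counting error only.

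Most peaks in the centre were short. Widths in the series list ran from 146 to 3640 bp with a median of 281 bp, and the middle 50% of peaks lay between 209 and 382 bp. Only 10 were wider than 1000 bp and 8 wider than 1500 bp. Together the 495 peaks covered 168.6 kb, or 2.45% of the span. The replicate lists drew wider peaks in the same span. The median was 417 bp in replicate 1, where peaks covered 1.69% of the span, and 547.5 bp in replicate 2, where they covered 4.32%. Series peaks that overlapped a replicate 2 peak mostly lay within it: in 397 of 410 such pairs (96.8%) the series peak was wholly inside. Over these pairs the replicate 2 peak was a median of 1.89 times as wide, and the midpoints lay a median of 25.5 bp apart. Against replicate 1, the series peak lay inside in 69 of 164 pairs (42.1%) and the midpoints were a median of 54.75 bp apart. Nesting was not counted over the whole lists.

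The centre had 71.8 series peaks per Mb, 35.4 replicate 1 peaks per Mb and 71.4 replicate 2 peaks per Mb. Between neighbouring series peaks the median gap was 8529 bp, and the middle 50% of gaps lay between 2085 and 18086 bp. Gaps ran from 43 to 99818 bp, and 19 were longer than 50 kb. Replicate 2 had nearly the same spacing, with a median gap of 8679 bp, and replicate 1 had 17781 bp. Of the 494 gaps, 54 (10.9%) were under 500 bp, against 9.88% in replicate 1 and 6.92% in replicate 2. In the series list this share was 10.2% (II) to 20.4% (V) in the other centres. It was 47.3% in the left arm of III and 18.1% in the right arm, and was not computed over the whole list. From midpoint to midpoint, the median spacing was 8829 bp for all 495 series peaks. It was 30335 bp for the 150 that overlapped a peak of each replicate. These 150 are a subset of the 495 in the same span, at 21.8 per Mb, so wider spacing follows from their smaller number. Whether they were spaced differently from any other 150 of the 495 was not tested.

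Along the span, the bin densities of replicate 1 had low rank correlations with those of the series list and replicate 2. Over 14 bins, Spearman's rho of the densities was 0.58 for the series list and replicate 2. It was 0.10 for the series list and replicate 1, and 0.01 between the replicates. No interval was computed, and rhos over so few bins are imprecise, so whether they differ is not known. In bins of 500 kb, the series list had between 42 and 88 peaks per Mb and replicate 2 between 46 and 98, and both were sparsest in the bin at 8946001 to 9446000, where 21 series and 23 replicate 2 peaks lay. The densest bin was the one at 8446001 to 8946000 in the series list (44 peaks) and the one at 6946001 to 7446000 in replicate 2 (49 peaks). Replicate 1 was densest at the left edge, with 52 peaks per Mb in the bin at 3446001 to 3946000, and sparsest at the right edge, with 20.5 in the last and shorter bin at 9946001 to 10337000. Over the left, middle and right parts of the span, each 2297 kb long, replicate 1 had 101, 77 and 66 peaks. The series list had 160, 173 and 162, and replicate 2 had 167, 165 and 160.

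**Figure D1:**
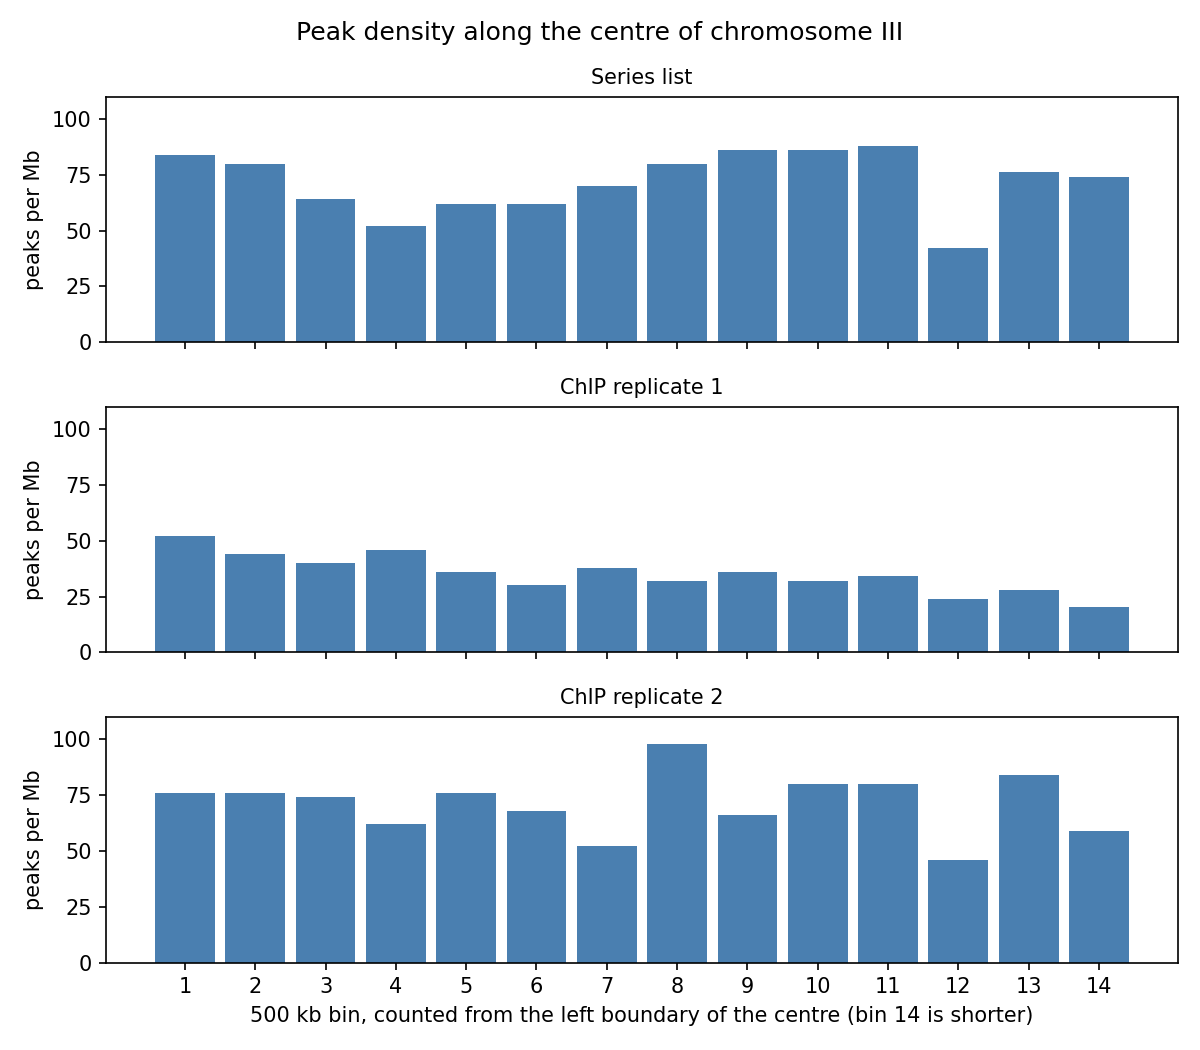
Peaks per Mb (vertical axis) in 500 kb bins counted from the left boundary of the centre of chromosome III (horizontal axis), for the series list, ChIP replicate 1 and ChIP replicate 2; bars are single values with no replicate error. Replicate 1 goes from 52 per Mb in bin 1 to 20.5 in bin 14, while the series list and replicate 2 both have their lowest bar in bin 12, at 42 and 46.

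Scores are the authors' own value per peak, on a scale that no header names, and are used here to rank peaks within a list. Series peaks of the centre ranked high in their list. Their median score was 12.21, against 8.12 over all 9630 peaks. In the centre 97 of 495 peaks (19.6%) belonged to the highest-scoring 10% of the whole list, a group that by construction holds 10% of all series peaks, and 322 (65.1%) scored above the whole list's median. The replicate lists had shares near their whole lists. Of the replicate 1 peaks in the centre, 23 of 244 (9.43%) were in that list's highest-scoring 10%, and of the replicate 2 peaks 52 of 492 (10.6%). Their median scores were 111.19 and 224.31, close to the 103.4 and 221.9 of the whole lists.

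A series peak was called found in a replicate when the peaks overlapped by at least 1 bp. In both replicates, 150 of 495 series peaks were found (30.3%, interval 26.4 to 34.5), where the share over all 9630 peaks was 15.2%. A further 260 (52.5%, interval 48.1 to 56.9) were found in replicate 2 alone, against 26.7% over the list. Only 9 (1.82%, interval 0.959 to 3.42) were found in replicate 1 alone, against 3.4% over the list. The remaining 76 (15.4%, interval 12.4 to 18.8) were found in neither, against 54.7%. Replicate 2 decided most of this: with replicate 2 left out, 67.9% of the series peaks had no partner, and with replicate 1 left out, 17.2%. The overlap asked for mattered as well: when it had to reach 50% of both peaks, 15.6% were found in both replicates and 44.8% in neither. How the series list was made is not stated, and reads of the replicates may have gone into it, so an overlap is not independent support for a site.

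The classes differed in median score, and some of them in median width. A median score of 24.16 and a median width of 362 bp were seen for the peaks found in both replicates. Those found in replicate 2 alone had 12.1 and 246.5 bp, and those found in neither 4.98 and 247.5 bp. The 9 found in replicate 1 alone were the widest, with a median of 464 bp, at a median score of 5.23. Of the 97 peaks of the centre in the highest-scoring 10% of the list, 59 were found in both replicates and 38 in replicate 2 alone, and none came from the other classes. The same split was not made for the highest-scoring 10% of the whole list, so it is not shown to be particular to the centre. The highest-scoring peak without a replicate partner lay at 3621511 to 3623320 (1810 bp, score 31.38, rank 997 of 9630).

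**Figure D2:**
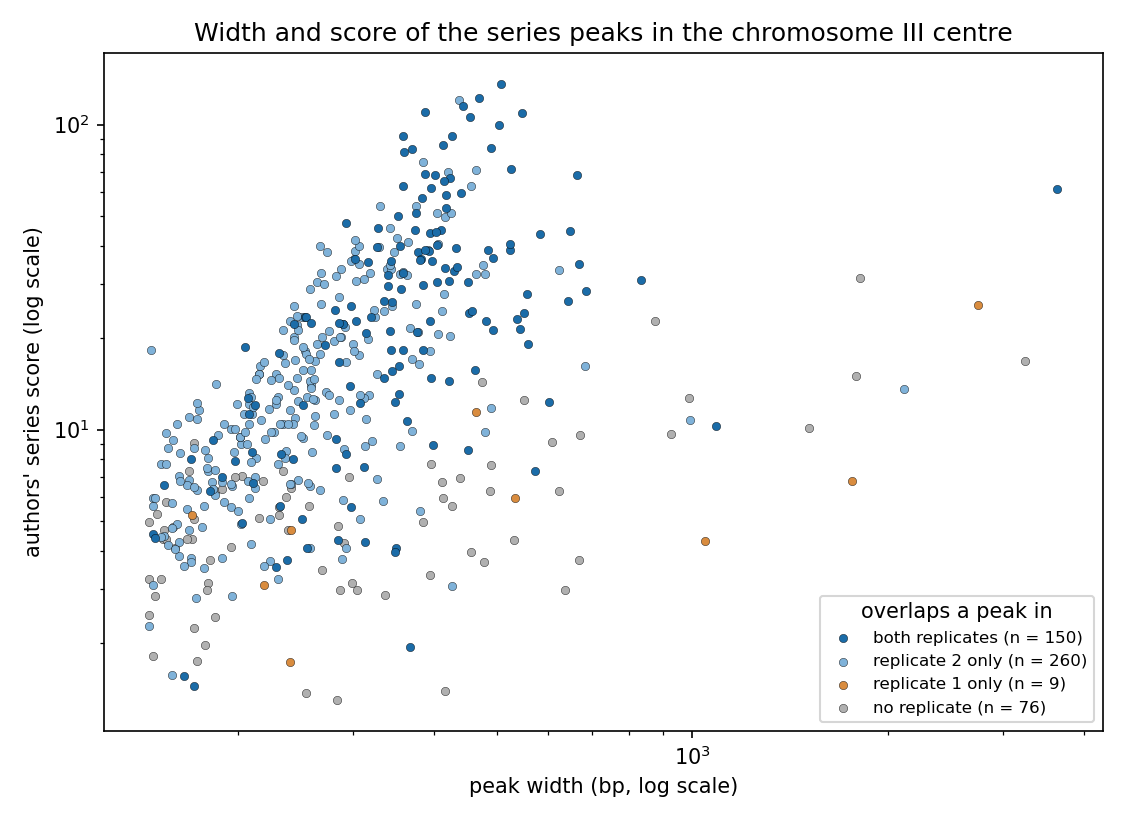
Width in bp (horizontal, log scale) and the authors' series score (vertical, log scale) of each of the 495 series peaks in the centre of chromosome III, coloured by the replicate lists in which a peak overlaps by 1 bp or more. Peaks found in both replicates have higher medians (362 bp, score 24.16) than those found in replicate 2 only (246.5 bp, 12.1). Their scores overlap widely, from 1.44 to 136.13 and from 1.57 to 120.55. The 10 peaks over 1000 bp are at the right, up to 3640 bp.

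Before width was taken into account, the share of series peaks found in each replicate was higher at high series scores. The 495 peaks were divided by score into 4 groups of 123 or 124. Among the lowest-scoring 25%, 65 of 124 peaks (52.4%, interval 43.7 to 61.0) were found in replicate 2, and in the groups above it 85.5%, 95.1% and 98.4%. For replicate 1 the share was 18.5% (23 of 124, interval 12.7 to 26.3) in the lowest group and again 18.5% in the next, then 32.5%, and 58.9% (73 of 124, interval 50.1 to 67.1) in the highest. The share found in neither was 42.7%, 12.9%, 4.88% and 0.806% from the lowest group to the highest. Score and width went together, the median width being 195.5, 219, 286 and 386 bp in the same order. Among the 249 peaks of up to 281 bp, the share found in replicate 1 did not go up with score: it was 16.7%, 12.9%, 13.8% and 0% (0 of only 8 peaks, interval up to 32.4) from the lowest group to the highest. Among wider peaks it was 23.5%, 35.5%, 49.2% and 62.9%. For replicate 2 the share went up in both, reaching 100% (58 of 58, interval from 93.8) in the third group of narrower peaks and 98.3% (114 of 116) in the highest group of wider ones. Whether these courses differ was not tested. Shares by score were not computed over the whole list, so the courses are not shown to be particular to the centre.

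**Figure D3:**
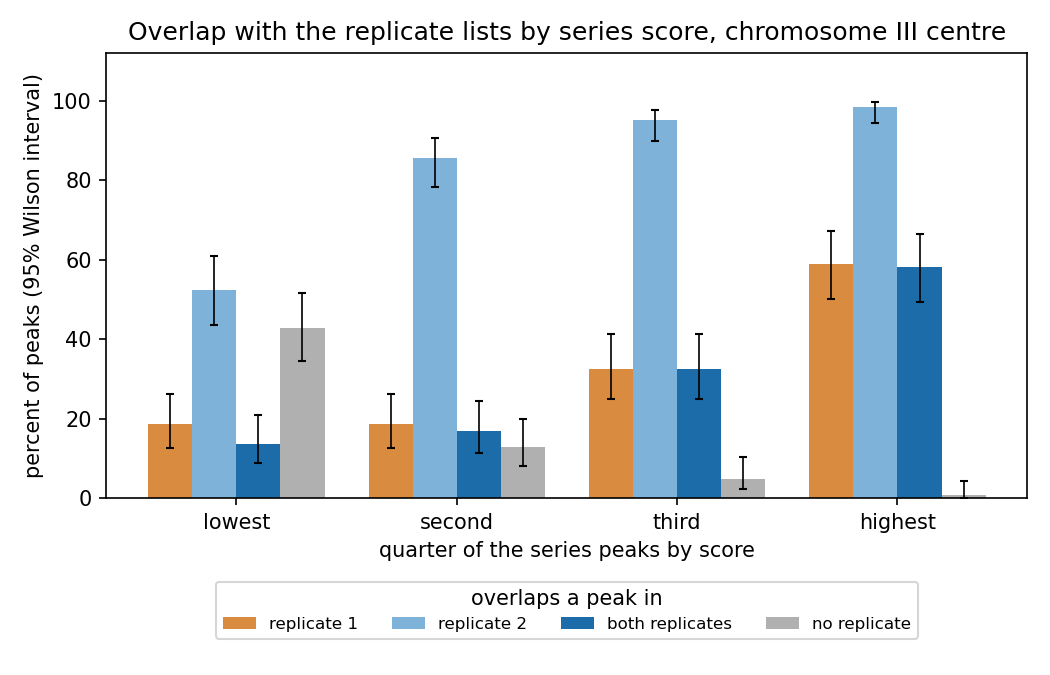
Percent of series peaks in the centre of chromosome III (vertical axis) that overlap a peak in replicate 1, in replicate 2, in both or in none, for 4 groups of 123 or 124 peaks from the lowest to the highest series score (horizontal axis); error bars are 95% Wilson intervals. The share found in replicate 2 is already 85.5% in the second group, while that in replicate 1 reaches 58.9% in the highest.

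Over the overlapping pairs with each replicate, series scores followed those of replicate 2 more closely than those of replicate 1. Over the 410 overlapping pairs with replicate 2, Spearman's rho of the scores was 0.77, and over the 164 pairs with replicate 1 it was 0.26. Between the replicates it was 0.51 over 182 pairs. These are descriptions across peaks, which are not independent replicates. Peaks of 1 replicate list share a library, reads of both replicates may have gone into the series list, and the pairs may share reads. The rho with each replicate depended on the overlap asked for. For pairs that overlapped by at least 50% of both peaks, it was 0.49 with replicate 1 (108 pairs) and 0.85 with replicate 2 (242 pairs). The pairs with replicate 1 and with replicate 2 cover different series peaks, since replicate 1 partners were commoner at high series scores. The rhos were not compared over the same peaks. All of the 50 highest-scoring series peaks of the centre had a replicate 2 partner in the best 25% of that list. Of the same 50, 36 had a replicate 1 partner, 20 of them in the best 25% of that list.

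**Figure D4:**
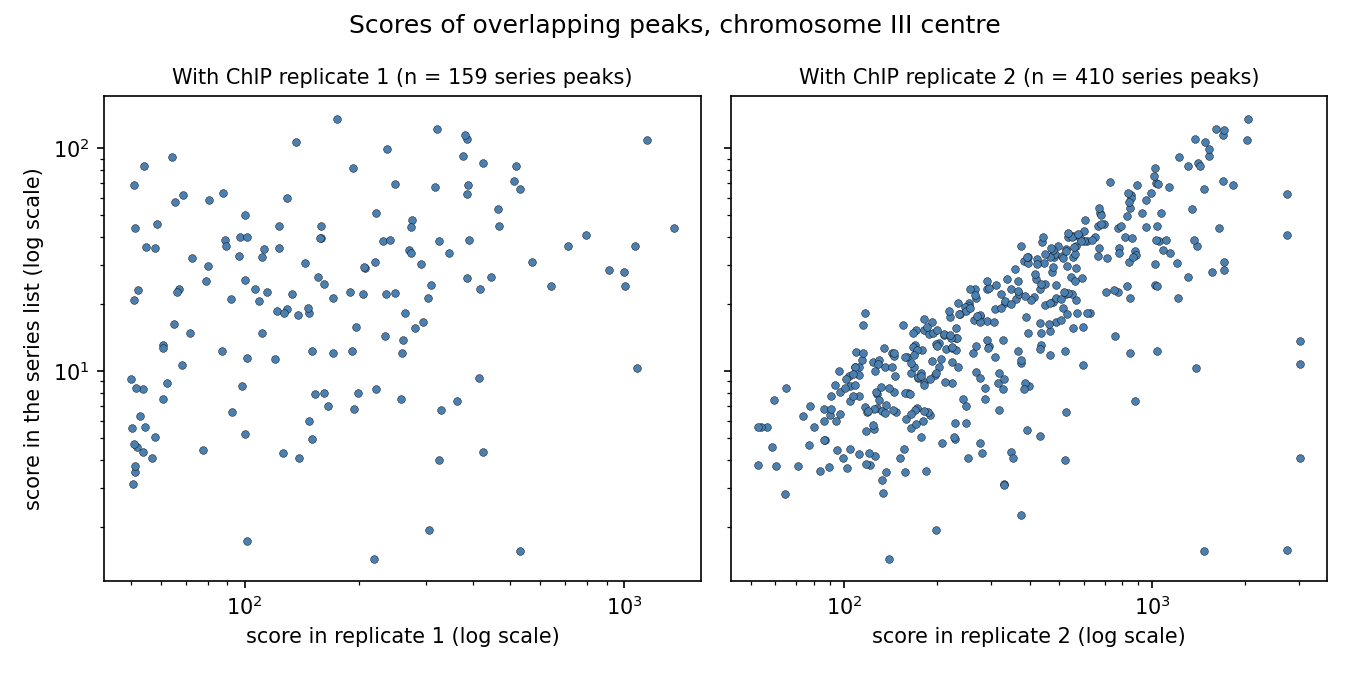
Series score (vertical, log scale) of the centre's series peaks against the score of the highest-scoring overlapping peak in ChIP replicate 1 (left, n = 159) and in ChIP replicate 2 (right, n = 410), each on a log scale. The points for replicate 2 form a rising band with some points scattered below it and those for replicate 1 a broad cloud, with rho over all overlapping pairs of 0.77 and 0.26.

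The strongest series peak of the centre lay at III:4568424-4568931 and was 508 bp wide. Its series score was 136.13 (rank 13 of 9630), with a score of 174.89 in replicate 1 (rank 813 of 2698) and 2043.98 in replicate 2 (rank 58 of 4580). It was thus among the best 10% in the series list and in replicate 2, and lower in replicate 1. The second, at 7854375 to 7854844, had a series score of 122.37 with rank 377 in replicate 1 and rank 114 in replicate 2. The third, at 9528665 to 9529101, scored 120.55 in the series list and 1713.61 in replicate 2 (rank 92), and was the only 1 of the 10 strongest with no replicate 1 peak. The peak at 8020750 to 8021295 was strong everywhere: it was rank 41 in the series list with a score of 108.96, rank 54 in replicate 1 with 1146.85, and rank 59 in replicate 2 with 2020.84. None of the other 9 strongest series peaks had a replicate 1 partner in the best 10% of that list.

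The fourth lay nearby, at 8043685 to 8044127 (score 115.23, replicate 1 rank 302, replicate 2 rank 100). A group of 4 of the 10 strongest lay near the left end of the span. They were at 3664195 to 3664553 (score 92.12, ranks 305 and 128 in replicates 1 and 2), at 3867344 to 3867730 (110.27, ranks 293 and 171), at 3916557 to 3917059 (99.44, ranks 564 and 126) and at 4170893 to 4171346 (106.26, ranks 1063 and 141). The tenth, at 8956154 to 8956579, had a series score of 91.48 and replicate 2 rank 222, and met a replicate 1 peak of only 149 bp with a score of 64.32 (rank 2073 of 2698). All 10 peaks were between 359 and 546 bp wide, and their replicate 2 partners ranked between 58 and 222.

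Over the whole centre, 10 sites stood in the highest-scoring 10% of all 3 lists, a set picked after the values were seen. Such sites were not counted over the whole lists, so whether 10 is many or few is not known. They were between 370 and 649 bp wide in the series list, with series ranks from 41 to 752, replicate 1 ranks from 42 to 260 and replicate 2 ranks from 24 to 321. Besides the peak at 8020750 they began at 4281930, 4369290, 5018094, 6453584, 8795391, 8888850, 9443224, 9545872 and 9765313. The site at 5018094 to 5018463 had a series score of 83.43, a replicate 1 score of 519.3 and a replicate 2 score of 1301.57. The site at 6453584 to 6453996 had 85.7 in the series list, 425.15 in replicate 1 and 1403.63 in replicate 2.

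The replicates had strong peaks of their own in the span, some of them low or absent in the series list. The highest-scoring replicate 1 peak lay at 5353042 to 5358515, was 5474 bp wide and had a score of 1607.53 (rank 32). Replicate 2 had a peak with nearly the same ends, 5353010 to 5358582, at a score of 301.97 (rank 1832), and the series list had none. The next in replicate 1, at 4281797 to 4282659 (score 1352.36), met a series peak of score 43.76. The third was the site at 8020518 to 8021371 named above. The fourth, at 8417006 to 8418040 (score 1081.25), met a 1087 bp series peak of score 10.28 (rank 3890) although it was rank 168 in replicate 2. The fifth, at 6133200 to 6133807 (score 1070.37), met a series peak of score 36.38.

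In replicate 2 the highest-scoring peak of the span ran from 7444295 to 7448855 (4561 bp, score 3020.97, rank 15). It had no replicate 1 peak, and it held 3 series peaks whose highest score was 13.64 (rank 2988). The next, at 9764552 to 9766651 (score 2737.34, rank 24), also held 3 series peaks, the highest with a score of 62.09, and met 2 peaks in replicate 1, the higher at rank 109. The third and the fourth were the sites at 4568312 and 8020406, partners of series peaks named above. The fifth, at 10096159 to 10097068 (score 1820.15), met a series peak of score 68.63 and a replicate 1 peak of rank 291.

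Set against each other, the replicates shared 182 of the 244 replicate 1 peaks in the span (74.6%, interval 68.8 to 79.6), where the share over the whole replicate 1 list was 62.5%. From the side of replicate 2, 169 of 492 peaks were shared (34.3%, interval 30.3 to 38.7), near the 34.9% of its whole list. The series list contained 160 of the 244 replicate 1 peaks (65.6%, against 65.2% over the whole list) and 398 of the 492 replicate 2 peaks (80.9%, against 83%). With an overlap of at least 50% of both peaks these shares were lower: 43.4% of replicate 1 peaks were found in replicate 2 and 21.5% of replicate 2 peaks in replicate 1, and the series list contained 44.3% of the replicate 1 and 49.2% of the replicate 2 peaks. The values that follow are for 1 bp. Replicate 2 peaks of the lowest-scoring 25% were found in the series list in 49 of 123 cases (39.8%, interval 31.6 to 48.7) and in replicate 1 in 19 (15.4%). In the highest-scoring 25%, 122 of 123 were in the series list (99.2%) and 92 in replicate 1 (74.8%, interval 66.5 to 81.6). Of the 61 highest-scoring replicate 1 peaks, 57 were in replicate 2 (93.4%, interval 84.3 to 97.4) and 52 in the series list (85.2%, interval 74.3 to 92.0).

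Some peaks were called in both replicates and not in the series list: 30 counted on replicate 1 and 23 on replicate 2. They scored low as a rule, with medians of 66.42 and 105.26, against 157.35 and 594.81 for peaks found in all 3 lists. The highest-scoring of them were the 5474 bp peak at 5353042 in replicate 1 and the replicate 2 peak at 7594588 to 7597297 (2710 bp, score 545.17, rank 956), whose replicate 1 partner scored 173.35.

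A few peaks of the centre were wide or crowded. The widest series peak, at 3448756 to 3452395 (3640 bp, score 61.54), was found in both replicates, through a replicate 1 peak of 216 bp and a replicate 2 peak of 594 bp. It belonged to a run of 7 series peaks less than 500 bp apart, from 3446608 to 3454915, which began at the left boundary of the span. The peaks at 4043548 to 4046794 (3247 bp) and 3621511 to 3623320 (1810 bp) had no partner in either replicate. The peak at 6998491 to 7001244 (2754 bp, score 25.57) met 2 replicate 1 peaks and none in replicate 2, and the peak at 7444332 to 7446445 (2114 bp) lay inside the strongest replicate 2 peak of the span. In all, 38 peaks stood in 10 runs of 3 or more with gaps under 500 bp, and 27 of them (71.1%, interval 55.2 to 83.0) were found in no replicate. Among the 405 peaks with no such neighbour, 28 were found in none (6.91%, interval 4.83 to 9.81) and 139 in both (34.3%, interval 29.9 to 39.1). Over all 9630 series peaks, 54.7% were found in none. Shares for runs and for lone peaks were not computed over that list, so the difference is not shown to be particular to the centre.

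At the left boundary the last peak outside lay at 3443121 to 3443512 (score 1.85) and the first inside at 3446608 to 3446891 (score 1.3), and neither was found in a replicate. At the right boundary the last peak inside lay at 10333871 to 10334251 (score 36.09, found in both replicates), and the first outside at 10407194 to 10407687 (score 62.53, found in replicate 2 alone).

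Sharing with replicate 1 was also uneven along the span. In its left part 69 of 160 series peaks were found in replicate 1 (43.1%, interval 35.7 to 50.9), in the middle part 45 of 173 (26.0%, interval 20.0 to 33.0) and in the right part 45 of 162 (27.8%, interval 21.5 to 35.1). The left part also had the higher median series score, 16.85 against 10.02 and 10.62. The share found in no replicate was 9.38% in the left part, 24.3% in the middle and 11.7% on the right, and 7 of the 10 runs of close peaks that were counted above lay in the middle part, between 6064349 and 7963029.

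Beside the arms of its own chromosome, the centre had sparser and shorter series peaks than the left arm, and a smaller share of them lacked a replicate partner. The centre had 71.8 per Mb with a median width of 281 bp, and the left arm 190.7 per Mb with 392 bp. Series peaks covered 2.45% of the centre and 15.8% of the left arm, and the share found in no replicate was 15.4% in the centre and 73.8% (interval 70.3 to 77.0) in the left arm. The replicates themselves went the other way, with 35.4 replicate 1 and 71.4 replicate 2 peaks per Mb in the centre against 21.5 and 43.2 in the left arm. The right arm lay close to the centre in density (74.0 per Mb), width (282 bp) and share of peaks in the highest-scoring 10% (18.8%, and 19.6% in the centre). Its share found in no replicate was 29.8% (interval 24.5 to 35.7).

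The centre of III was set beside those of the other 5 nuclear chromosomes in 26 measures over the 3 lists, and lay within their range in 17. Its 71.8 series peaks per Mb lay within 45.4 on X to 81.3 on I, its median width of 281 bp within 263 to 313 bp, its share found in both replicates (30.3%) within 24.8% on I to 37.8% on X, and its share found in none (15.4%) within 12.0% on II to 28.7% on V. The other 9 measures were outside the range. In the series list they were the median score, 12.21 against 8.12 on X to 10.83 on II, the share of peaks in the highest-scoring 10% of the list, 19.6% against 8.13% to 17.2%, and the share found in replicate 1 alone, 1.82% against 2.28% to 6.35%. In replicate 1 they were the density, 35.4 per Mb against 24.2 to 32.2, the median gap, 17781 bp against 18013 to 21464 bp, and the share of peaks found in replicate 2, 74.6% against 60.5% to 73.7%. In replicate 2 they were the density, 71.4 per Mb against 40.8 to 66.9, the covered share of the span, 4.32% against 2.60% to 4.15%, and the share of peaks in the highest-scoring 10%, 10.6% against 6.74% to 9.95%. In every measure some centre is lowest and some centre is highest, so a place outside the range of the other 5 is not by itself a trait particular to III. Density and median gap both describe spacing and are linked. For the share found in replicate 1 alone (interval 0.959 to 3.42) and the share of replicate 1 peaks found in replicate 2 (interval 68.8 to 79.6), the interval reached into the range. No interval was computed for the other measures outside the range, among them both shares in the highest-scoring 10%. Whether those would reach into the range is not known. No test of these differences was made.

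**Figure D5:**
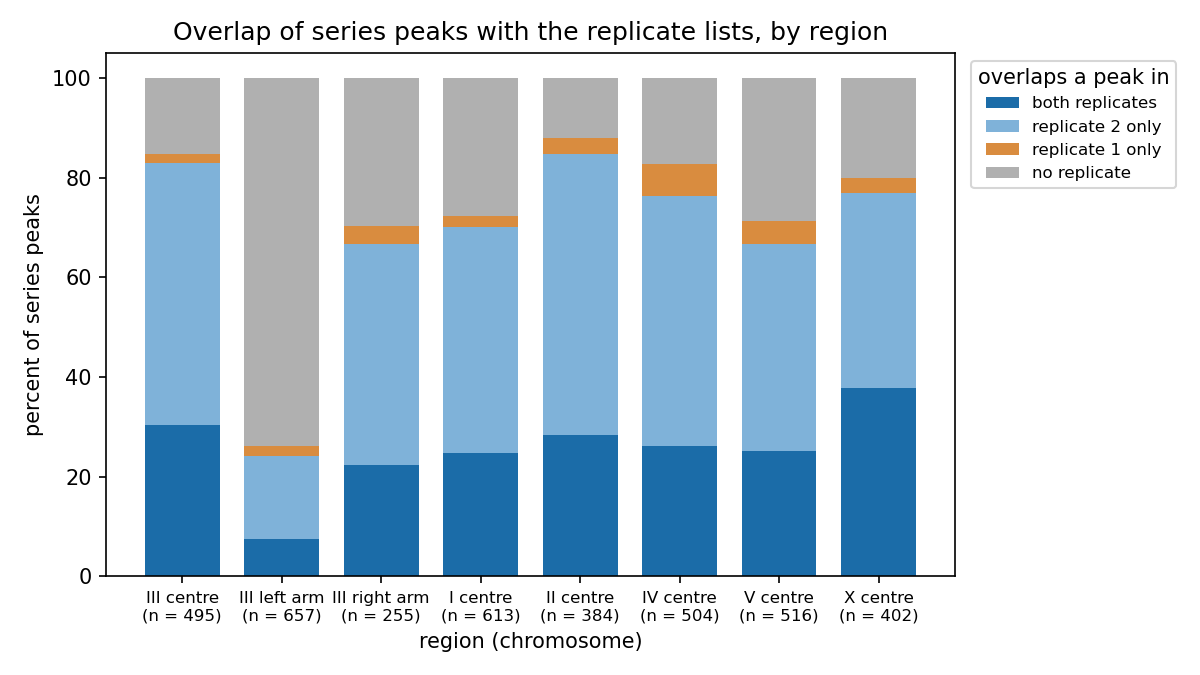
Percent of series peaks (vertical axis) that overlap a peak in both replicates, in replicate 2 only, in replicate 1 only or in none, for the centre of chromosome III, its arms and the centres of the other 5 nuclear chromosomes (horizontal axis, with the number of peaks); bars are single values with no replicate error. The centre of III, with 15.4% found in none, is within the range of the other centres, and its left arm stands at 73.8%.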

How the data were processed

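Each deposited list gives a start, an end and a score per peak in WS220 coordinates, per the file headers. The source column names MACS for the replicate lists and MACS v2 for the series list, while BWA and ce10 come from the submitters' processing notes. Peak thresholds, controls and pooling of libraries: not given in the sources used here. The score of a peak is the authors' deposited value. The lists were compared in Python 3.11.15 (scipy 1.17.1, pandas 2.3.3, numpy 2.4.6). Peaks that overlapped by at least 1 bp were called shared, and partners beyond the span's ends were allowed. The alternatives tried were higher-scoring peaks only, midpoints within 200 bp, a 50% reciprocal overlap, series peaks of up to 1000 bp, peaks under 500 bp apart joined, and each replicate left out. Gaps count the bases between neighbouring peaks. The centres of the other chromosomes were the middle 50% of the largest coordinate of any peak. Overlap and joining were tested on simulated data. The members and comparisons were chosen with earlier results of these data known. Named sites are the 10 highest-scoring and 5 widest series peaks, the 5 highest-scoring peaks of each replicate, the peaks at either boundary and the densest and sparsest 500 kb bins; other sites were picked after their values were seen. No sequence was used.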

Additional observations from a re-analysis of the deposited data

How the results depend on the processing

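At a 50% reciprocal overlap, 15.6% of the centre's series peaks were found in both replicates and 44.8% in neither, 43.4% of replicate 1 peaks were found in replicate 2 and 21.5% the other way, 44.3% of replicate 1 and 49.2% of replicate 2 peaks were in the series list, and rho with the series scores was 0.49 for replicate 1 and 0.85 for replicate 2. With midpoints within 200 bp, 68.0% of replicate 1 peaks were in replicate 2 and rho with replicate 2 was 0.82. Series peaks at or above the list's median score numbered 46.7 per Mb, had a median width of 317.5 bp, and were found in both replicates in 38.5% and in neither in 3.73%. Joining peaks under 500 bp apart left 9.30% found in neither. The replicate 1 list alone gave 35.4 peaks per Mb and a median width of 417 bp, and replicate 2 alone a median width of 547.5 bp. Leaving out a replicate gave 17.2% to 67.9% found in neither. In all, 15 alternative values, the 17.2% among them, stayed within the 95% interval of the reported value or, for density, within 1.5 times of it. The other 19 alternative values moved outside these limits. A 50% reciprocal overlap admits fewer pairs of unequal width; the causes of the other shifts were not tested. No paired analysis was possible because the input samples, which share the replicate numbers, have no values here. Depth is unknown, so how far it limits the lists was not tested.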

Other observations

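The longest stretches without a peak were picked after their values were seen. From 9145207 to 9239813 and from 9240432 to 9330965 none of the 3 lists had a peak midpoint, stretches of 94607 and 90534 bp counted on replicate 2, which are separated by a single series peak and its replicate 2 partner. The longest stretch of the series list, from 9950355 to 10050172 (99818 bp), held 1 peak in each replicate. Replicate 1 had longer empty stretches. The longest, from 9113055 to 9406621 (293567 bp), held 6 series peaks and 6 replicate 2 peaks, and the next, from 8445968 to 8678178 (232211 bp), held 12 of each.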
